A study of Mus musculus with 12 samples.

Results

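The genes described are 9 markers of position in the olfactory epithelium, the nasal cell layer that detects odors, chosen by name: Nqo1, Acsm4, Robo2 and Sema3f for the dorsal zone and Ncam2, Nrp2, Nfia, Nfib and Nfix for the ventral zone. They are 9 of 39395 genes in the deposited table, each was matched to 1 row by its symbol, and all 9 passed the filter on low counts. RNA was taken from the olfactory mucosa of 6 male mice that lack 408217 bp of chromosome 7 (positions 102509797 to 102918014 of GRCm38), a large deletion that takes in the class I enhancer and neighbouring receptor genes, and of 6 wild-type male mice. All 12 animals were at postnatal day 30 and of mixed 129S6;C57BL/6J background, and each gave 1 ribodepleted, strand-specific library of total RNA. The labels do not say whether the deletion animals carry 1 or both deleted copies. The mucosa was sequenced as bulk tissue, so fewer cells of a type and less RNA per cell cannot be told apart in any value below.

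Each olfactory sensory neuron expresses a single odorant receptor gene, and the position of the neuron along the dorsal to ventral axis restricts which receptors it can use. Class I receptors, encoded in a single cluster on chromosome 7, are used mostly by neurons of the dorsal zone, while class II receptors are spread over all zones. Dorsal neurons are recognised by the quinone reductase Nqo1 and the acyl-CoA synthetase Acsm4, and more ventral neurons by the adhesion molecule Ncam2, also known as OCAM. The guidance molecules Robo2, Sema3f and Nrp2 help the axons of each zone to reach their own part of the olfactory bulb, and the transcription factors Nfia, Nfib and Nfix, which increase towards the ventral zone, take part in zonal receptor choice. The question addressed here is whether the markers of the dorsal zone, where class I neurons lie, differed between the genotypes when class I receptor RNA did.

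The promoters of the most abundant dorsal markers, Acsm4 and Nqo1, and of Ncam2 and Nrp2, a ventral pair that varied together between animals, are shown as the start regions of genes whose levels are compared below. Each window runs from 250 bases before to 50 bases after the RefSeq start on GRCm38.p6, 5′ to 3′ on the strand of the gene. A window was found for 7 of the 9 genes and not for Nfib or Sema3f. The windows are chr7:119689776-119690075 on the plus strand for Acsm4, chr8:107403156-107403455 on the minus strand for Nqo1, chr16:81200447-81200746 on the plus strand for Ncam2 and chr1:62703067-62703366 on the plus strand for Nrp2. Capitals mark matches to 6 short motifs searched on both strands.
Acsm4: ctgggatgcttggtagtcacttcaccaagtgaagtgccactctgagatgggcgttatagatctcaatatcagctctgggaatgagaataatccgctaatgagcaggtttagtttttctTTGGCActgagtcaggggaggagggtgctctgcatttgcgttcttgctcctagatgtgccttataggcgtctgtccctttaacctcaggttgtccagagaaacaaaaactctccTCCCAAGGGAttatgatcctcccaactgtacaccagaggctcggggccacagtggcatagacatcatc
Nqo1: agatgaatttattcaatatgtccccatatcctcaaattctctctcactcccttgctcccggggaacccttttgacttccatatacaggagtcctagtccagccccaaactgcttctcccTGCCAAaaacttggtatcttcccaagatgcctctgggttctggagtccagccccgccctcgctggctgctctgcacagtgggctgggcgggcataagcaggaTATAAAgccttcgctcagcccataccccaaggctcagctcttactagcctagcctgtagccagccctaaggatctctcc
Ncam2: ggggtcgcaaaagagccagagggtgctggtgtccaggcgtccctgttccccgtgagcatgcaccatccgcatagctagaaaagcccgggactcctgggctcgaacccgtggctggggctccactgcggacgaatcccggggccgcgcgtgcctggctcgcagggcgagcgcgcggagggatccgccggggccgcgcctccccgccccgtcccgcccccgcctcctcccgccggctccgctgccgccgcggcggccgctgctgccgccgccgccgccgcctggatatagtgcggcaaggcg
Nrp2: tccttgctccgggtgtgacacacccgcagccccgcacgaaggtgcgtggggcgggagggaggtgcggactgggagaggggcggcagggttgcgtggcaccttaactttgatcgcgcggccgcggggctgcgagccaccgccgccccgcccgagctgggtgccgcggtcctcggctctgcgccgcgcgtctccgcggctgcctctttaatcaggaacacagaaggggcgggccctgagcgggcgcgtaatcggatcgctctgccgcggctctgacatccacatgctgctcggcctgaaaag
The motifs were the Ebf site TCCC and GGGA with any 2 bases between them, found in 0.904% of 32851 RefSeq promoter windows of this length, the full nuclear factor I site, TTGGC and GCCAA with any 5 bases between them (0.0365%), its single-arm site TTGGCA (14.1%), which can overlap the full site, the core TGACNNNGC of the antioxidant response element (12.4%), the LIM-homeodomain core TAATTA (5.29%) and the TATA box TATAAA (13.6%). Acsm4 had an Ebf site starting at position 233 of its window and a single-arm site at position 119. Nqo1 had a single-arm site, read on the opposite strand, at position 120 and a TATA box at position 222. No match to these letters was found in the Ncam2 and Nrp2 windows. A match is a description of the letters and not evidence of binding.

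Per kb of annotated exon, the dorsal enzymes were far more abundant than the other markers. Divided by the length of all annotated exons, Acsm4 stood at 4442 ± 619 normalized counts per kb in deletion animals and 5036 ± 546 in wild-type animals (SD, n = 6 each). Nqo1 followed with 3429 ± 453 normalized counts per kb in deletion animals and 3629 ± 561 in wild-type animals. Normalized counts are reads scaled by the size factor of their library. Not divided by length, Nqo1 averaged 5326 normalized counts in deletion animals and 5636 in wild-type animals. Nfib, the next gene by that count, averaged 3545 and 3490. Per kb, Nqo1 exceeded Nrp2, the third gene in the order, by 14.1-fold in deletion animals and by 14.9-fold in wild-type animals. The ranges were separate in both genotypes. Then came Nrp2 (244 normalized counts per kb in deletion and 243 in wild-type animals), Nfib (237 and 233), Ncam2 (189 and 176), Robo2 (160 and 169), Sema3f (98.5 and 108), Nfix (85.8 and 87.9) and Nfia (83.3 and 85.5). The order of the 9 means was the same in both genotypes. Neighbours in this order were not always distinct: Nrp2 exceeded Nfib in 3 of 6 deletion and 4 of 6 wild-type animals, and Nfix exceeded Nfia in 3 and 4. Total RNA libraries also hold unspliced RNA, and its part in the levels of genes with long introns was not tested. Reads per library ran from 303 to 659 for Sema3f, the gene with the fewest, and from 6592 to 11956 for Acsm4, the gene with the most.

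None of the 9 markers passed the test between genotypes. The test was limma on log2 of the normalized count plus 1, with p-values adjusted over all 17320 genes tested, of which 0.497% passed at an adjusted p under 0.05, 0.052% as higher and 0.445% as lower in deletion animals. These shares include genes of low counts. In a fit of only the genes with a mean of at least 100 normalized counts, a level that all 9 exceeded, 8 genes passed in place of 86. By limma 0 of 9 also had an unadjusted p under 0.05, where 4.39% of all genes did, and edgeR and DESeq2 called 0 of 9 as well. The ranges of the genotypes overlapped for all 9, while 0.629% of all tested genes had ranges that did not overlap. Since the genes were chosen by name with earlier results known, these counts describe the 9 genes and are no test of the group.

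**Figure D1:**
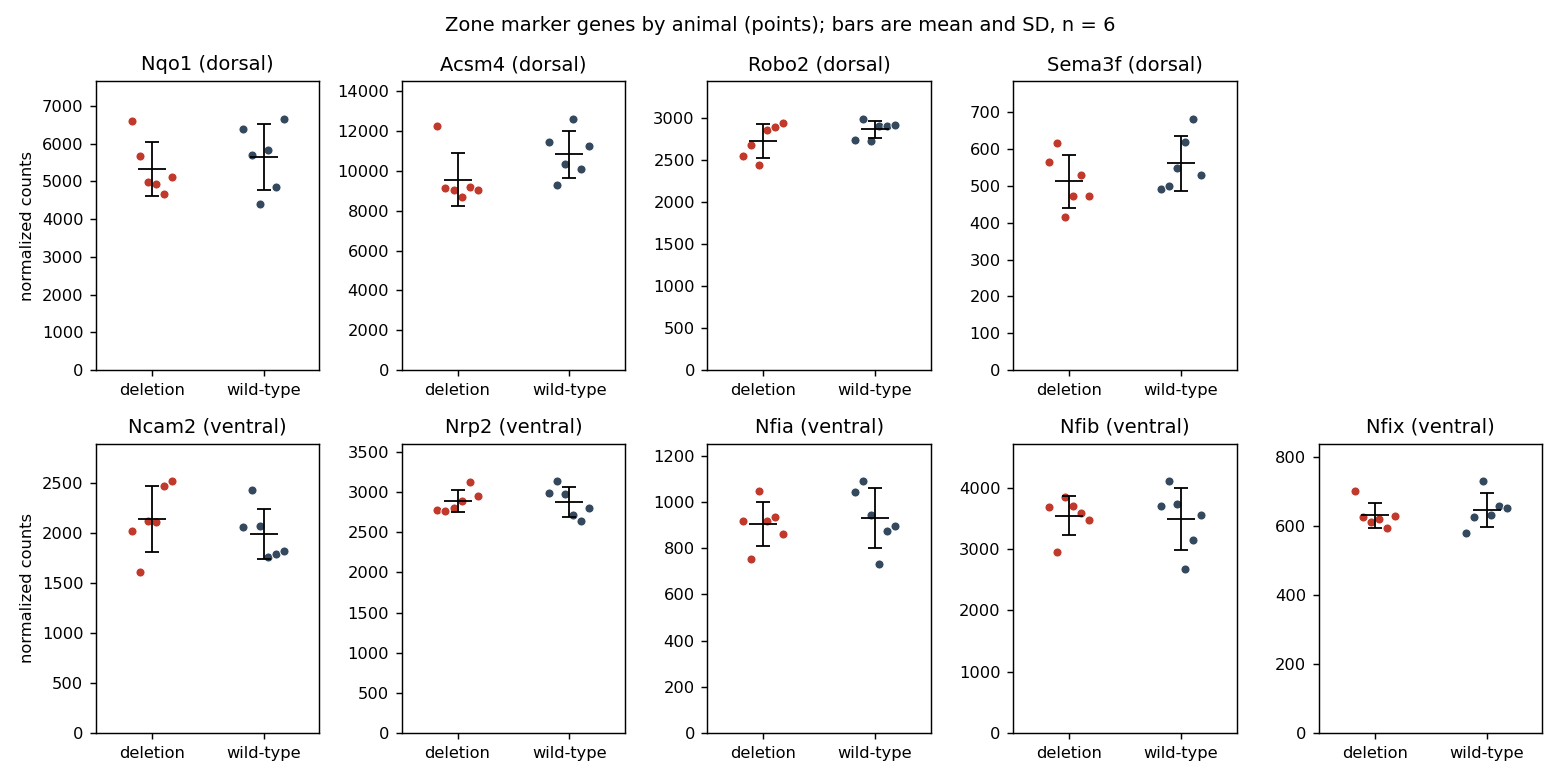
Normalized counts (vertical axes, from 0) of the 4 dorsal genes in the upper row and the 5 ventral genes in the lower row, with 1 point per animal, deletion animals in red on the left and wild-type animals in dark blue on the right, and the mean with SD in black. The point clouds overlap in every panel, and in the Acsm4 panel 5 deletion animals lie together below the wild-type animals while deletion replicate 1 lies at 12255.

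Among the dorsal genes, Nqo1 (ENSMUSG00000003849.8, chromosome 8, 107388225 to 107403206, minus strand), a detoxifying enzyme induced through the factor NRF2, is the usual label of dorsal neurons. It had 4668, 5052 and 6589 normalized counts as the lowest, median and highest of 6 deletion animals, and 4391, 5762 and 6656 in wild-type animals. No deletion animal lay outside the wild-type range. The log2 fold change was -0.08 ± 0.10 (SE, n = 6 each, limma adjusted p 0.955), with a fold of 0.948 and a 95% interval of 0.818 to 1.10.

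Acsm4 (ENSMUSG00000047026.9, chromosome 7, 119690026 to 119714565, plus strand) belongs to the medium-chain acyl-CoA synthetases, which activate fatty acids, and is also known as O-MACS. The lowest, median and highest values were 8685, 9091 and 12255 normalized counts in deletion animals, against 9286, 10804 and 12613 in wild-type animals. In 5 of 6 deletion animals Acsm4 was below the lowest wild-type animal, and deletion replicate 1 was above all but 1 of the wild-type animals. The log2 fold change was -0.18 ± 0.09 (SE, n = 6 each, limma unadjusted p 0.0501, adjusted p 0.955), the largest in size of the 9 genes, with a fold of 0.880 and a 95% interval of 0.774 to 1.00. Without deletion replicate 1 it was -0.26, with an unadjusted limma p of 0.00317 and an adjusted p of 0.412, and over 22 alternatives the adjusted p ran from 0.412 to 1.00. In the authors' deposited table, which sets wild-type over deletion animals (the reverse sign), Acsm4 had a log2 fold change of 0.13, a p of 0.0487 and an adjusted p of 0.988.

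Acsm4 lies 16.8 Mb from the deletion on the same chromosome. The animals were of mixed background, and whether a linked segment of a parental strain takes part in this difference was not tested. Sustentacular cells, the supporting cells of the epithelium, are another cell type of the mucosa. An unadjusted limma p under 0.05 was found for 4.39% of all tested genes and for 2 of 5 tested sustentacular markers. These were Cyp1a2 (log2 fold change -0.21, limma p 0.0191) and Muc2 (-0.37, limma p 0.0267). By limma 0 of the 5 passed, against 0.497% of all tested genes, and 4 had a negative log2 fold change, against 54.1%. These 5 summed to 4056 to 4547 CPM (library-scaled counts, with TMM library sizes) in deletion animals and 3909 to 4944 CPM in wild-type animals. Their part in the Acsm4 difference was not tested.

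Robo2 (ENSMUSG00000052516.19, chromosome 16, 73891839 to 74411825, minus strand), a receptor for Slit proteins that repels growing axons, is highest in dorsal neurons. It ranged from 2434 over a median of 2770 to 2934 normalized counts in deletion animals, and from 2723 over 2901 to 2989 in wild-type animals. Deletion animals were spread more widely, with 3 of 6 below the lowest wild-type animal. The log2 fold change was -0.07 ± 0.06 (SE, limma adjusted p 0.955), a fold of 0.95 with a 95% interval of 0.873 to 1.03.

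Sema3f (ENSMUSG00000034684.12, chromosome 9, 107681500 to 107710475, minus strand), a secreted guidance cue released by early dorsal axons, acts on axons that carry Nrp2. It had 416, 502 and 616 normalized counts as the lowest, median and highest value in deletion animals, and 491, 539 and 682 in wild-type animals. In 3 of 6 deletion animals it was below the lowest wild-type animal. Its log2 fold change was -0.13 ± 0.10 (SE, limma adjusted p 0.955), a fold of 0.911 with a 95% interval of 0.790 to 1.05. All 4 dorsal genes thus had a negative log2 fold change that did not pass (median -0.11), while 54.1% of all tested genes were negative and their median was -0.01.

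Among the ventral genes, Ncam2 (ENSMUSG00000022762.18, chromosome 16, 81200697 to 81626828, plus strand), a cell adhesion molecule on the axons of all but the dorsal zone, had 1611, 2114 and 2516 normalized counts as the lowest, median and highest value in deletion animals, and 1762, 1944 and 2428 in wild-type animals. Deletion animals lay on both sides of the wild-type range, 1 below and 2 above. The log2 fold change was 0.10 ± 0.10 (SE, limma adjusted p 0.955), a fold of 1.07 with a 95% interval of 0.923 to 1.24. It was 0.20 without deletion replicates 2 and 3, with an unadjusted limma p of 0.0498 and an adjusted p of 0.830 (range of the adjusted p over 22 alternatives 0.707 to 1.00).

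Nrp2 (ENSMUSG00000025969.15, chromosome 1, 62703285 to 62818695, plus strand), a receptor for Sema3f, had 2769, 2844 and 3129 normalized counts as the lowest, median and highest value in deletion animals, and 2640, 2891 and 3133 in wild-type animals. Every deletion animal was inside the wild-type range. The log2 fold change was 0.01 ± 0.06 (SE, limma adjusted p 0.970), a fold of 1.00 with a 95% interval of 0.923 to 1.09. Nrp2 is also made by lymphatic endothelium, of which 3 markers were tested with 0 passing by limma, against 0.497% of all tested genes. The lymphatic markers summed to 29.2 to 41.9 CPM in deletion animals and 31.4 to 35.1 CPM in wild-type animals. Their part in the Nrp2 level was not tested.

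The nuclear factor I proteins bind DNA as dimers and are graded towards the ventral zone. Nfia (ENSMUSG00000028565.18, chromosome 4, 97772734 to 98118874, plus strand) had 755, 920 and 1047 normalized counts as the lowest, median and highest value in deletion animals, and 731, 922 and 1089 in wild-type animals. Nfib (ENSMUSG00000008575.17, chromosome 4, 82290173 to 82705750, minus strand) had 2948, 3644 and 3854 in deletion animals and 2679, 3630 and 4108 in wild-type animals. Nfix (ENSMUSG00000001911.16, chromosome 8, 84699876 to 84800344, minus strand) had 596, 624 and 702 in deletion animals and 581, 642 and 729 in wild-type animals. For all 3 genes the deletion animals stayed inside the wild-type range. The log2 fold changes were -0.03 ± 0.09 for Nfia, 0.03 ± 0.09 for Nfib and -0.03 ± 0.06 for Nfix (SE, limma adjusted p 0.955 for each), with 95% intervals of the fold of 0.856 to 1.12, 0.894 to 1.17 and 0.891 to 1.07. Exons of Nfia share positions with 1 gene on the opposite strand and those of Nfix with 2. No source used here states whether the counting used strand, so reads of these partners may be included.

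**Figure D2:**
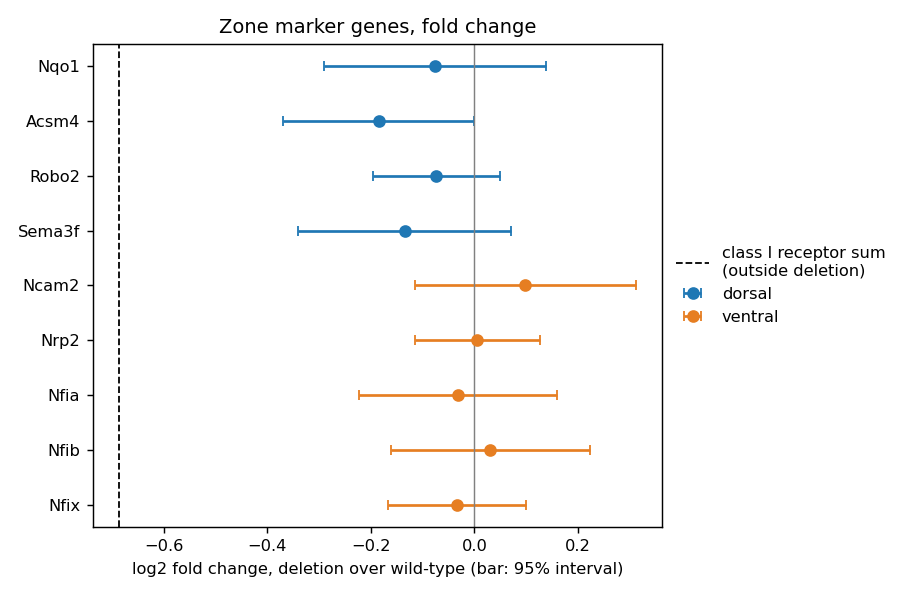
Log2 fold change of each gene, deletion over wild-type (horizontal axis), with its 95% interval from limma, dorsal genes in blue and ventral genes in orange, and the log2 ratio of the mean class I receptor sum as a dashed line at -0.69. All 9 intervals lie to the right of the dashed line, and that of Acsm4 reaches up to 0.

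Class I receptor RNA differed by more than any of the zone genes. The 120 listed class I receptor genes outside the deletion summed to 368 ± 59.4 CPM in deletion animals and 592 ± 73.9 CPM in wild-type animals (SD, n = 6 each, exact two-sided permutation p = 0.00216, the smallest that 924 assignments allow). The ratio of the means was 0.621, a log2 ratio of -0.69. The 95% intervals of all 9 zone genes excluded a change of that size, and the interval of Nqo1 reached down to -0.29 and that of Acsm4 to -0.37 on the log2 scale. Without deletion replicates 2 and 3, whose libraries had reads in the largest shares of genes, the class I log2 ratio was -0.73 (exact permutation p 0.00952).

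Set against the dorsal markers within each animal, class I RNA was still lower. There were 1.03 ± 0.221 class I reads per Nqo1 read in deletion animals and 1.58 ± 0.204 in wild-type animals (SD, n = 6 each). The highest deletion animal, replicate 3, reached 1.31, and the lowest wild-type animal, replicate 4, had 1.33, so the ranges touched closely without overlap. Per Acsm4 read there were 0.577 ± 0.124 class I reads in deletion animals and 0.817 ± 0.113 in wild-type animals, with ranges of 0.424 to 0.733 and 0.612 to 0.900 that overlapped. The balance of zones was also described by dividing dorsal by ventral markers. Nqo1 per Ncam2 was 2.57 ± 0.670 in deletion animals and 2.87 ± 0.585 in wild-type animals, and Acsm4 per Ncam2 was 4.57 ± 1.04 and 5.55 ± 1.12. Both pairs of ranges overlapped widely, from 1.89 to 3.52 against 2.12 to 3.65 for Nqo1 and from 3.59 to 6.08 against 3.82 to 7.16 for Acsm4. No test was made of these ratios, since the genes were chosen with earlier results known. Class II receptor reads per Ncam2 read were 46.9 ± 3.48 in deletion animals and 45 ± 2.45 in wild-type animals, with overlapping ranges.

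**Figure D3:**
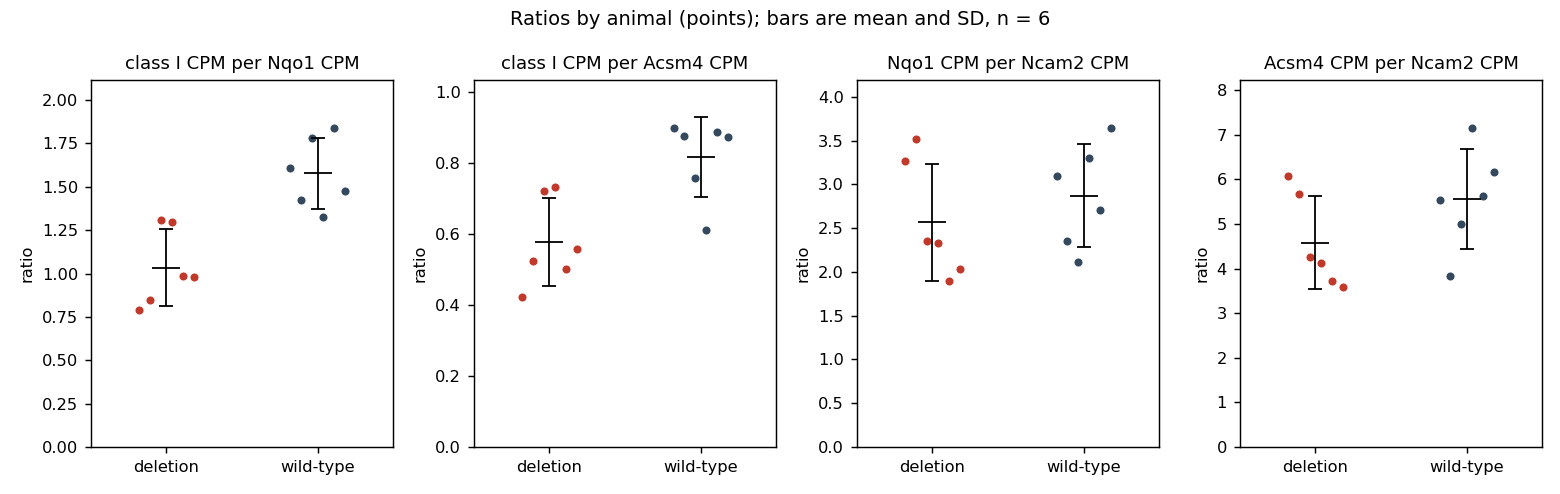
Ratios of CPM within each animal (vertical axes, from 0), with 1 point per animal, deletion animals in red on the left and wild-type animals in dark blue on the right, and the mean with SD in black. Class I per Nqo1 is separate between genotypes by the small gap from 1.31 to 1.33, and the other 3 ratios overlap.

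Whether the markers varied together within a genotype was examined pair by pair. Deviations from the genotype mean on the log2 scale were correlated over the 12 animals for 45 pairs, the 9 genes and the class I sum, with permutation within genotype and adjustment over the 45 pairs. Both pairs that passed were ventral. Nfia and Nfib had a Pearson r of 0.94 (permutation p 3.0e-05, adjusted 0.00135) and a Spearman rho of 0.92 (permutation p 0.00032, adjusted 0.0144). Without the 2 animals farthest from the median Nfia deviation r was 0.83, and it was 0.94 within deletion animals and 0.95 within wild-type animals. This pair passed under all 16 alternatives. Nfix did not share the pattern, with r of -0.18 to Nfia (adjusted permutation p 0.771) and 0.03 to Nfib (adjusted permutation p 0.947). Ncam2 had a positive r to Nfia (0.67, adjusted permutation p 0.159) and Nfib (0.69, 0.114), which did not pass. The same held for Nrp2, with an r of 0.60 to Nfia (adjusted permutation p 0.282) and 0.64 to Nfib (0.235).

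Ncam2 and Nrp2 had a Pearson r of 0.82 (permutation p 0.00106, adjusted 0.0238) and a Spearman rho of 0.89 (permutation p 0.00068, adjusted 0.0153). Without the 2 animals farthest from the median Ncam2 deviation r was 0.85, and it was 0.77 within deletion animals and 0.94 within wild-type animals. The pair passed under 11 of 16 alternatives. It did not pass without wild-type replicate 2 (r 0.76, adjusted permutation p 0.150), wild-type replicate 4 (0.80, 0.0814), wild-type replicate 6 (0.82, 0.0675), deletion replicate 4 (0.82, 0.0562) or deletion replicate 6 (0.85, 0.0553).

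The dorsal enzymes Nqo1 and Acsm4 had a Pearson r of 0.63 (permutation p 0.0373) and a Spearman rho of 0.61 (permutation p 0.055), and the adjusted permutation p-values of 0.235 and 0.225 did not pass. Deletion replicate 1 was the highest deletion animal for Nqo1, Acsm4 and Nfix. Nqo1 and Nfix had an r of 0.94 within deletion animals and -0.77 within wild-type animals, a difference that was not tested. Sema3f had a Pearson r of -0.74 to Nfia and -0.73 to Nfib (adjusted permutation p 0.0927 for both), which did not pass. To Nfix its Pearson r was 0.34 (adjusted permutation p 0.633) and its rho 0.56 (adjusted permutation p 0.287), and neither passed. Sema3f and Nfia passed under 1 of 16 alternatives, without wild-type replicate 5 (r -0.79, adjusted permutation p 0.0423). To Ncam2 and Nrp2 the r of Sema3f was -0.62 and -0.53 (adjusted permutation p 0.235 and 0.339), which did not pass. The dorsal Robo2 instead had a positive r to Ncam2 and Nrp2, 0.34 and 0.32 (adjusted permutation p 0.633 for both). Between Nqo1 and Ncam2 r was -0.30 and between Acsm4 and Ncam2 -0.36, and the class I sum had an r of 0.21 to Nqo1 and -0.07 to Acsm4, all 4 with an adjusted permutation p of 0.633 or more.

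A difference between libraries in how long and short transcripts were represented moved with Nfia and Nfib. For each library the median deviation of 3261 tested genes with under 2 kb of exon was subtracted from that of 1362 tested genes with over 10 kb, a measure added after the values were seen. It was lowest at -0.22 in wild-type replicate 4 and -0.14 in deletion replicate 2, where Nfib deviated by -0.37 and -0.26, and highest at 0.17 in wild-type replicate 2, where Nfib deviated by 0.25. In a family of 126 relations of the 9 genes to this measure and to 13 cell type marker lists, 2 passed by Pearson r: Nfib had an r of 0.95 to it (rho 0.83, permutation p 8.0e-05 and 0.00244, adjusted 0.00504 and 0.133) and Nfia 0.93 (rho 0.97, permutation p 3.0e-05 and 2.0e-05, adjusted 0.00378 and 0.00252). Without the 2 libraries farthest from the median of the measure r was 0.90 for Nfib and 0.89 for Nfia. Ncam2 had an r of 0.74 and Nrp2 of 0.70, with adjusted permutation p-values of 0.102 and 0.240, which did not pass. Nfix, also ventral, had an r of -0.08 (rho -0.52) and the dorsal Sema3f of -0.61 (rho -0.68), with adjusted permutation p-values of 0.969 and 0.306. Exons span 15.0 kb in Nfib, 10.9 kb in Nfia, 11.3 kb in Ncam2 and 11.8 kb in Nrp2, but also 17.0 kb in Robo2, whose r was 0.03. What this measure contributes to the correlations of Nfia with Nfib and of Ncam2 with Nrp2 was not tested.

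**Figure D4:**
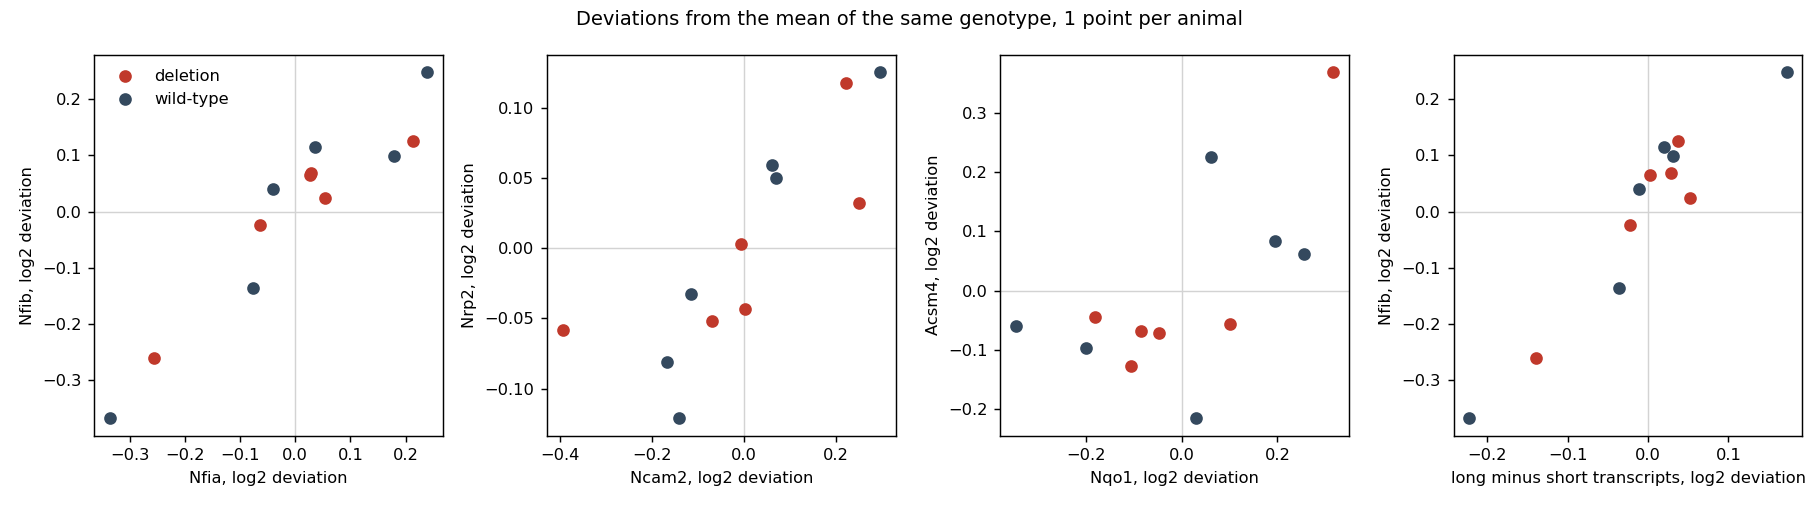
Deviations from the mean of the same genotype on the log2 scale, 1 point per animal, deletion animals in red and wild-type animals in dark blue, for Nfib against Nfia, Nrp2 against Ncam2, Acsm4 against Nqo1, and Nfib against the library's deviation of long minus short transcripts. The points follow a line in the left panel (r 0.94) and in the right panel (r 0.95), and wild-type replicate 4 and deletion replicate 2 are the lowest points of both.

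The genes whose deviations were most like those of a marker were named by the highest Pearson r over the 12 animals among 11420 tested genes with a mean of at least 100 normalized counts, as a description. For Acsm4 they were Acy1 (0.97), Ldhd (0.96) and Apoc1 (0.92), and for Nqo1 Sarm1 (0.85), Gstz1 (0.85) and Olfr1157 (0.83). For Ncam2 they were Rbbp8 (0.97), Morc3 (0.96) and Wdr44 (0.95), and for Nrp2 Tmem167b (0.96), Lrch2 (0.95) and Ddx6 (0.94). For Nfib they were Zfp280d (0.99), Krit1 (0.97) and Mob1b (0.97), and for Nfia Phc3 (0.96), Zfp738 (0.95) and Olfr1204 (0.95). Acy1, an aminoacylase, averaged 1153 normalized counts in deletion animals and 1285 in wild-type animals, and Ldhd, a mitochondrial lactate dehydrogenase, 3422 and 4053. The log2 fold changes of Acy1 and Ldhd were -0.16 and -0.25 (limma adjusted p 0.955 for both).

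Other genes of the pathways to which the markers belong gave no call either. Outside the 9 genes, 64 of 72 pathway genes were tested and 0 passed by limma, edgeR or DESeq2. Limma called 0.497% of all tested genes. An unadjusted limma p under 0.05 was found for 1 of the 64, against 4.39% of all tested genes. The median log2 fold change of the 64 was -0.03, with 38 negative. Over all tested genes the median was -0.01, with 54.1% negative. In each list below, members included, the gene with the smallest p is named. Of 7 Slit and Robo genes, ligands and receptors of axon repulsion, 5 were negative, and the ligand Slit1 had 532 ± 63.6 normalized counts in deletion animals and 599 ± 63.2 in wild-type animals (SD, n = 6 each, log2 fold change -0.17, limma p 0.0551, adjusted p 0.955). Of 7 class 3 semaphorins 3 were negative, with Sema3f itself at the smallest p. Among 6 neuropilins and class A plexins, the receptors for these cues, 5 were negative and Plxna4 had a log2 fold change of -0.10. In the nuclear factor I family 3 of 4 were negative, and Nfix had the smallest p.

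Ncam1, the paralog of Ncam2, had a log2 fold change of -0.06. The 3 tested medium-chain acyl-CoA synthetases, Acsm1 (-0.16), Acsm3 (-0.03) and Acsm4, were all negative without passing. Acsm2 and Acsm5 were not analysed here. In the NRF2 pathway, which induces Nqo1, 7 of 13 genes were negative (54.1% of all tested genes) with a median of -0.01. Keap1, the inhibitor of NRF2, had a log2 fold change of -0.14. Retinoic acid, a vitamin A derivative that patterns the epithelium, is made by enzymes of the Aldh1a family, of which Aldh1a2 is 1. Of 16 tested genes of its synthesis, breakdown and receptors 15 were negative, where 54.1% of all tested genes were. The 16 had a median of -0.07 and 0 passed by limma, against -0.01 and 0.497% over all tested genes. Aldh1a2 had 949 ± 35.5 normalized counts in deletion animals and 1043 ± 96.9 in wild-type animals (SD, n = 6 each). Its log2 fold change was -0.13 (limma p 0.0534, adjusted p 0.955).

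Other receptors of known zone did not pass. Olfr160, also called M72 and dorsal, had 132 ± 14.2 normalized counts in deletion animals and 110 ± 16.1 in wild-type animals (SD, n = 6 each, log2 fold change 0.27, limma p 0.0286, adjusted p 0.955). Olfr73, also dorsal, had a log2 fold change of 0.09, and Olfr1507, the ventral receptor MOR28, of 0.01 with an SE of 0.29. Olfr151 was too low to test, with 11 reads over all 12 libraries. Of 12 tested trace amine-associated receptors, which mark a further set of mostly dorsal neurons, 2 were negative and the median was 0.12. Over all tested genes 54.1% were negative and the median was -0.01. Taar7b had a log2 fold change of 0.40 (limma adjusted p 0.955).

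The tissue carried the defining markers of olfactory neurons. Omp, the marker of mature olfactory neurons, averaged 56675 ± 7738 normalized counts in deletion animals and 60163 ± 9286 in wild-type animals (SD, n = 6 each). Of 71 marker genes of 13 cell types 65 were tested and 0 passed by limma, where 0.497% of all tested genes did. Against 4.39% of all tested genes, 4 of the 65 had an unadjusted limma p under 0.05. These were Cyp1a2 and Muc2, Cd74 of immune cells (-0.25), in whose list 3 of 5 genes were negative with a median of -0.01, and Neurod1 of precursors (0.23), in whose list 0 of 7 were negative with a median of 0.15. In the other lists the gene with the smallest p was Gng13 for mature neurons (-0.38), Gng8 for immature neurons (0.06), Krt5 for horizontal basal cells (-0.19), Sox9 for Bowman's glands (-0.17), S100b for ensheathing glia (-0.21), Pecam1 for endothelium (-0.17), Prox1 for lymphatic endothelium (0.24), Col1a1 for fibroblasts and bone (-0.24), Dnah5 for ciliated cells (0.10) and Hbb-bt for erythroid cells (0.28), with log2 fold changes in parentheses. These single genes do not stand for their lists: Dnah5 was positive while the other 2 ciliated cell genes were negative (list median -0.01). Negative were 8 of 9 mature neuron, 2 of 6 immature neuron, 3 of 3 horizontal basal cell, 3 of 5 Bowman's gland, 4 of 5 ensheathing glia, 3 of 4 endothelial, 1 of 3 lymphatic, 6 of 6 fibroblast and bone and 0 of 4 erythroid genes, against 54.1% of all tested genes. Recovered reads per library ranged from 10091239 to 18612011 in deletion animals and from 13942401 to 18044908 in wild-type animals. At least 1 read was found for 67.2% to 94.6% of listed genes in deletion libraries and for 65.2% to 69.3% in wild-type libraries, and 4 deletion libraries (replicates 2 to 5) were above all wild-type libraries.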

How the data were processed

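Per the submitters' processing notes, the authors worked with STAR 2.6.0 and DESeq2 on genome build GRCm38.p6. No read counter is named in the sources used here. The deposited per-gene signal values are read counts scaled by the size factor of each library, and 100% of them were whole multiples of the library's smallest value (tolerance 0.01 of a read), so whole reads were recovered. The authors' log2 fold change, p-value and Wald score come from the same deposited table, and the score was not used. The table as used here has 39395 complete rows and 1 incomplete row, which was left out. Positions and exon lengths came from GENCODE M21, matched by Ensembl identifier for 39296 rows (99.7%).

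Genes were kept by the filter of edgeR 4.0.16 (minimum count 10, 17320 genes) and tested with limma 3.58.1 in R 4.3.3 (trend, robust moderation) on log2(value + 1) with group as the only term, which understates changes of low genes. Benjamini-Hochberg adjustment ran over these 17320 genes with a cutoff of 0.05, and all tests were two-sided. edgeR and DESeq2 1.42.0 were run on recovered reads as alternatives. CPM used TMM library sizes over the tested genes. Correlations used 100000 permutations. The fit was tested on simulated data with planted changes larger than that of any zone gene. Recovery of changes as small as those of the zone genes was not tested. Class I genes are the Olfr genes on chromosome 7 between Rrm1 and Smpd1.

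The members, the 12 pathway lists and the 13 marker lists were chosen with earlier results of these data known. Named are the 9 members, the list gene with the smallest p, and the 3 genes most like Nqo1, Acsm4, Ncam2 and the members of pairs that passed. Acy1 and Ldhd got values after these were seen, as did Cyp1a2, Muc2, Acsm1, Acsm3, Olfr73, Olfr1507 and Omp. Replicate numbers were not used to pair the animals in the main test.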

Additional observations from a re-analysis of the deposited data

Results flagged for a closer look

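In 2 of 34 sets of 6 values a single animal stood apart from the others of its genotype by a gap above the 95% critical value for the share of the whole range, where chance gives about 1.7 sets. Both were deletion replicate 1. Acsm4 was at 12255 normalized counts in that animal, against 8685 to 9198 in the other 5. Nfix was at 702, against 596 to 629. The cause was not tested.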

How the results depend on the processing

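No alternative brought any of the 9 zone genes past the threshold: the number called was 0 under each of 22 alternatives, and over them the lowest adjusted p was 0.412, for Acsm4 without deletion replicate 1. The count of other pathway genes called also stayed at 0. The log2 fold changes of Nqo1, Acsm4, Robo2, Sema3f and Ncam2 kept their sign throughout, while that of Nrp2 turned in 5 alternatives, of Nfia in 3 and of Nfib and Nfix in 1 each. The number of all genes called was 86 and ranged from 80 to 93 with single libraries left out. It was 8 in a fit of only the genes with a mean of at least 100 normalized counts, and all 8 were among the 86. It was 105 without deletion replicates 2 and 3. With the replicate number as a block it was 77, with 0 zone genes. Correlations of the deviations of same-numbered animals ran from -0.24 to -0.01, which gave no sign of pairing but cannot exclude it. The class I log2 ratio ranged from -0.76 to -0.64 with single libraries left out. Class I per Nqo1 ranged from -0.69 to -0.54 on the log2 scale, class I per Acsm4 from -0.58 to -0.43, Nqo1 per Ncam2 from -0.27 to -0.08 and Acsm4 per Ncam2 from -0.38 to -0.19. The number of passing pairs was 2 and ranged from 1 to 3 with single libraries left out. Over all tested genes the 95% interval of a log2 fold change had a median half-width of 0.22, with narrower intervals for some genes, such as Nrp2, Robo2 and Nfix.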
